A study of Mus musculus with 6 samples.

Results

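The long noncoding RNAs described here are 45 transcripts that a deposited table of mouse testis transcripts carries under the biotype lncRNA and under an annotated transcript identifier. The table lists 831 transcripts, 433 of them annotated and 398 assembled by the authors from their reads. Testis RNA came from C57BL/6 mice fed high-fat food for 8 weeks, with libraries numbered 10, 11 and 12, and from mice of the same strain fed normal food for 8 weeks, with libraries numbered 7, 8 and 9. The labels name no other treatment or allele, and the age of the mice is not given in the sources used here. Trizol served to extract RNA from 50 mg of testis, and the libraries mark the strand by dUTP. The series title concerns thermogenesis pathways in the testis of obese mice. The labels do not say that each library is its own animal, so a p-value here measures the spread between libraries, which may be partly technical.

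Long noncoding RNAs are transcribed, spliced and often polyadenylated like messenger RNAs but are not known to be translated. Testis is known for transcribing an unusually wide set of them, much of it in meiotic and post-meiotic germ cells. They include intergenic genes, genes read from the strand opposite to a coding gene, transcribed pseudogenes, and noncoding isoforms that a coding gene makes by using other exons or ends. Some have well studied roles. Xist coats the X chromosome that is silenced in female cells, and Meg3 is a nuclear RNA made from the maternal copy of an imprinted region.

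The biotype covers more than stand-alone noncoding genes. In the annotation GENCODE M21, 23 of the 45 transcripts are noncoding isoforms of protein-coding genes. Another 10 belong to antisense genes, 6 to intergenic lncRNA genes, 3 to pseudogenes and 3 to other noncoding gene classes, and the last 22 together are called lncRNA genes of their own below. The 45 transcripts come from 45 genes on 17 chromosomes, 29 on the plus and 16 on the minus strand. Chromosome 7 held 6 of them, of 72 listed transcripts there, and chromosome 4 held 5 of 57. A further Gm7292 transcript carries the biotype lincRNA and falls outside the rule. Of 36 marker genes of germ, Sertoli, Leydig, stromal, immune, fat and epididymal cells, 0 had a listed annotated transcript, because the table holds only transcripts called by the authors. The identity of the tissue by these markers was therefore not analysed here.

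The following stretches are shown because they set 9 of the transcripts apart from others of the same gene. Most are exonic in GENCODE M21 in that transcript alone. Coordinates are on GRCm38, and sequences read 5′ to 3′ along the transcript. The Gm7292 stretch is the part by which the lncRNA model extends beyond the start of the other listed Gm7292 transcript. For Zfp961 the lower-case letters are the end of the exon before a splice junction that no other transcript uses, and the capitals are the start of the exon after it, so its coordinates span the intron. The gene called Gm46603 in the table is AC162182.1 in GENCODE M21.
Gm7292, chr6:117716342-117716472, plus strand: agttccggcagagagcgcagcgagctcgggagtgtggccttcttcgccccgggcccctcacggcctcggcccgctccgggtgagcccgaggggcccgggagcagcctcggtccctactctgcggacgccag
Gm4673, chr7:30959836-30959895, plus strand: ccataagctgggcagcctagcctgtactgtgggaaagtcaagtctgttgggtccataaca
Gm46603, chr17:29320541-29320600, minus strand: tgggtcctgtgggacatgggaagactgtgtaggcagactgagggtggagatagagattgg
Reck, chr4:43930634-43930693, plus strand: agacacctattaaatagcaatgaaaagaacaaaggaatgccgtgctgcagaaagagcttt
Cux1, chr5:136302414-136302473, minus strand: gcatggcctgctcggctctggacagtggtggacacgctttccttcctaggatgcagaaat
Tgfa, chr6:86211633-86211692, plus strand: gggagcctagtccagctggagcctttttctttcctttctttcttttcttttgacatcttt
Zfp961, chr8:71951160-71967899, plus strand: cgagagtgcaccatgAGTCCAATTGGTAAA
Fos, chr12:85474823-85474882, plus strand: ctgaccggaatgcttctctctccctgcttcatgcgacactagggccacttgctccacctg
Epb41, chr4:131936411-131936470, minus strand: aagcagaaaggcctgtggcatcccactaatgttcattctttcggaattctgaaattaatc
Each of these sequences was found whole in its own transcript and in no other GENCODE M21 transcript. Of the 82 overlapping 50-base words of the Gm7292 stretch, 32 (39.0%) also occur in transcripts of other genes.

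Annotated microRNAs lie on the same strand within 3 of the lncRNA transcripts. Gm35853 spans Mir1941 in an intron, and the noncoding isoform of Nanos3, a gene for a germ cell RNA-binding protein, spans Mir181c and Mir181d in its intron. Meg3 holds Mir1906-1 in an exon. Their 7 mature sequences from RefSeq, on GRCm38.p6, are shown with the seed (bases 2 to 8) in capitals. The 5p arms of miR-181c and miR-181d share a seed, and the other seeds are each different. The microRNAs themselves were not measured in these libraries.
mmu-miR-1941-5p: aGGGAGAUgcugguacagaggcuu
mmu-miR-1941-3p: cAUCUUAGcaguaucucccau
mmu-miR-181c-5p: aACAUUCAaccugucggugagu
mmu-miR-181d-5p: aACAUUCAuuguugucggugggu
mmu-miR-181c-3p: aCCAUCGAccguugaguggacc
mmu-miR-181d-3p: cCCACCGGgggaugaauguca
mmu-miR-1906: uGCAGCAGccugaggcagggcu

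On the high-fat diet 18 of the 45 lncRNA transcripts were higher and 27 lower in the authors' deposited table, so 40% were higher against 55.4% of all listed transcripts. Canonical coding transcripts had 66.3% higher (59 of 89) and retained-intron transcripts 31.9% (15 of 47). By class, the noncoding isoforms of coding genes divided into 12 higher and 11 lower, while the genes of their own divided into 6 higher and 16 lower, and a difference in direction between the classes was not tested. All 5 single-exon lncRNA transcripts were lower, and single-exon models made up 11.1% of the lncRNA transcripts against 3.13% of all listed. The canonical lncRNA transcripts numbered 13, of which 3 were higher and 10 lower. In whole testis, fewer cells of a type and less RNA per cell cannot be told apart.

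All of these transcripts were listed because the authors had called them between the same libraries. The authors' tests called 831 of 95751 transcripts, 0.868%. A repeat of the test on the listed counts with edgeR is therefore no independent evidence. With edgeR 30 of the 45 lncRNA transcripts had counts high enough to test, and 30 passed an adjusted p of 0.05, 12 higher and 18 lower. Among all listed transcripts 99.7% of those tested passed, 55.7% higher and 44% lower, so the share of lncRNA transcripts that passed says nothing particular about them. The other 15 were below the filter on low counts, 6 higher and 9 lower. The diets did not overlap for 42 of the 45, against a background of 91.3% of all listed transcripts. Of these, 18 were higher, beside 50.9% of all listed transcripts, and 24 were lower, beside 40.4%. The exceptions were Gm20632, Gm29050 and Cntnap5b. Other scalings moved the log2 fold changes of all listed transcripts by a median of -0.24 to -0.52. Under them 28 or 29 of the 30 still met the filter, and 0 of these changed direction.

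**Figure D1:**
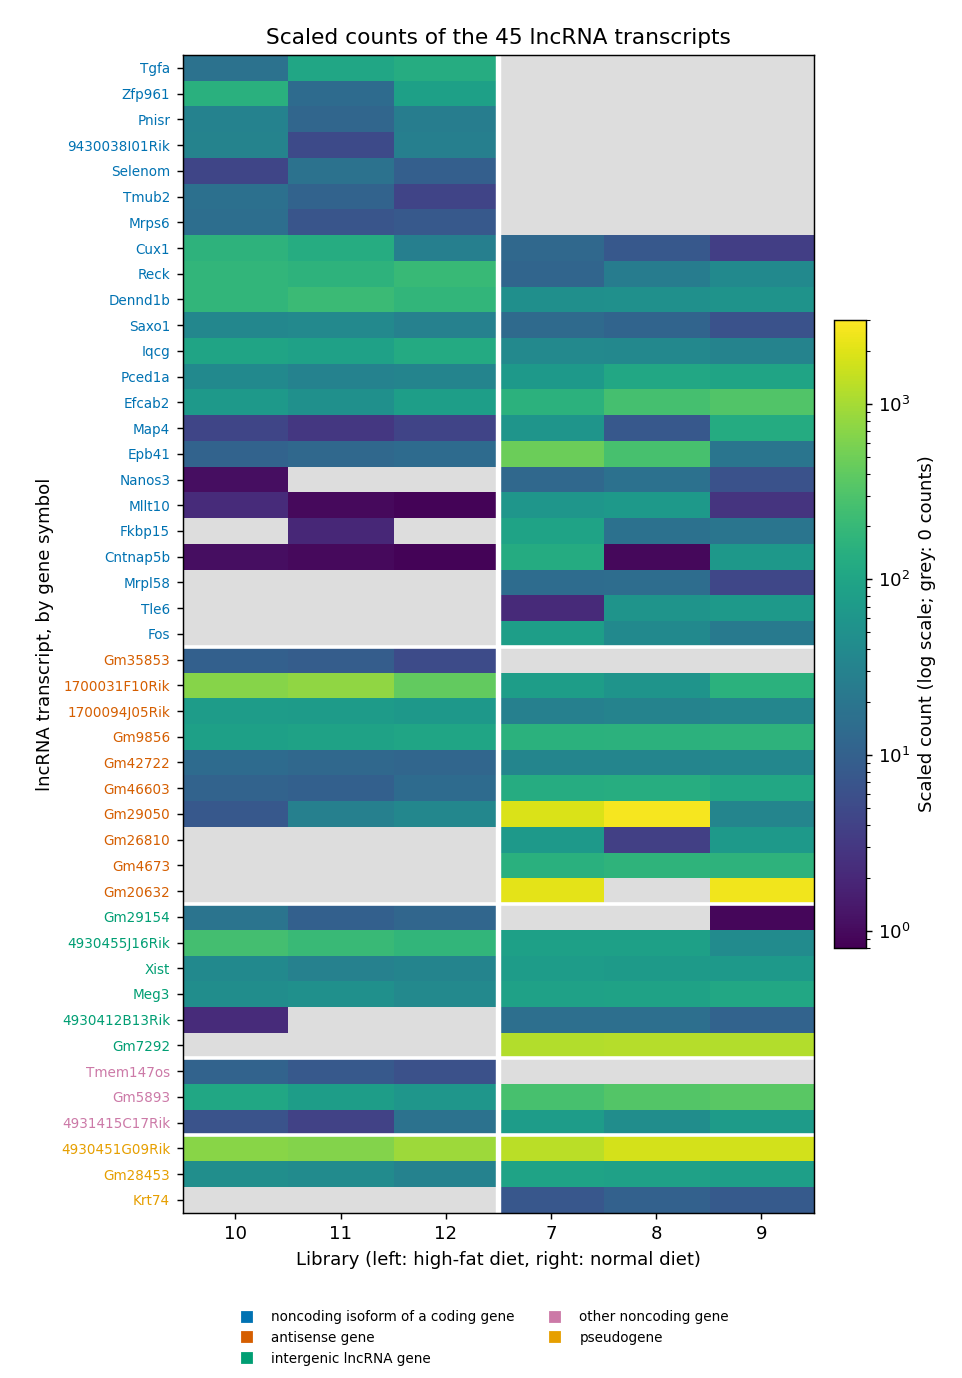
Scaled count (deposited estimated count divided by the library's size factor, log colour scale, grey for 0 counts) of the 45 lncRNA transcripts, one row each, in high-fat libraries 10, 11 and 12 on the left and normal-diet libraries 7, 8 and 9 on the right, with the class of the gene given by the colour of its symbol. The grey blocks are the 9 transcripts with 0 counts in all normal-diet libraries and the 8 with 0 counts in all high-fat libraries, and Gm20632, Gm29050 and Epb41 each have 1 normal-diet library far below the other two.

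The median scaled count of the lncRNA transcripts over all libraries was 41.2, against 133 for all listed transcripts, where a scaled count is the deposited estimated count divided by the library's size factor. Within the lncRNA transcripts it was 24.1 for isoforms of coding genes and 67.0 for genes of their own. Their median length was 2221 bases with 4 exons, against 3094 bases with 10 exons for all listed. Other classes of noncanonical transcripts were as low, with medians of 32.2 scaled counts for targets of nonsense-mediated decay and 45.8 for retained-intron transcripts. Zero counts in all 3 libraries of a diet were found for 17 of the 45 (37.8%), 8 on the high-fat and 9 on the normal diet, against 30.1% of all listed transcripts and 40.9% of the nonsense-mediated decay targets. With at most 3 counts in each library in place of 0, the high-fat number was 13 and the normal-diet number 10.

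Summed over the 45 transcripts, scaled lncRNA counts were 3151, 2986 and 2909 in the high-fat libraries, against 9127, 8035 and 7778 in the normal-diet libraries. The means were 3015 ± 124 and 8313 ± 716 (SD, n = 3 each), and the diets did not overlap. Of all listed counts the lncRNA transcripts held 0.669%, 0.681% and 0.675% in the high-fat libraries and 2.37%, 2.16% and 2.10% in the normal-diet libraries. Most of this gap lay in 4 abundant transcripts, singled out after their values were seen: Gm7292, Gm20632, Gm29050 and 4930451G09Rik. They made up 22.6%, 22.7% and 32.2% of lncRNA counts in the high-fat libraries and 71.2%, 70.9% and 69.3% in the normal-diet libraries. Without them the sums were 2438, 2309 and 1972 on the high-fat diet and 2632, 2340 and 2391 on the normal diet, which overlap. All these sums leave out the lincRNA transcript of Gm7292, at 1772 scaled counts on the high-fat diet and 630 on the normal diet. With both Gm7292 transcripts added, that gene had 1772 and 1804, so the fall at Gm7292 holds for the lncRNA model only. The median level per kilobase, in scaled counts per 1000 bases of transcript, was 9.76, 7.39 and 9.02 in the high-fat libraries and 26.7, 12.7 and 12.4 in the normal-diet libraries. Normal-diet library 7 thus stood apart from the other two on this measure.

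**Figure D2:**
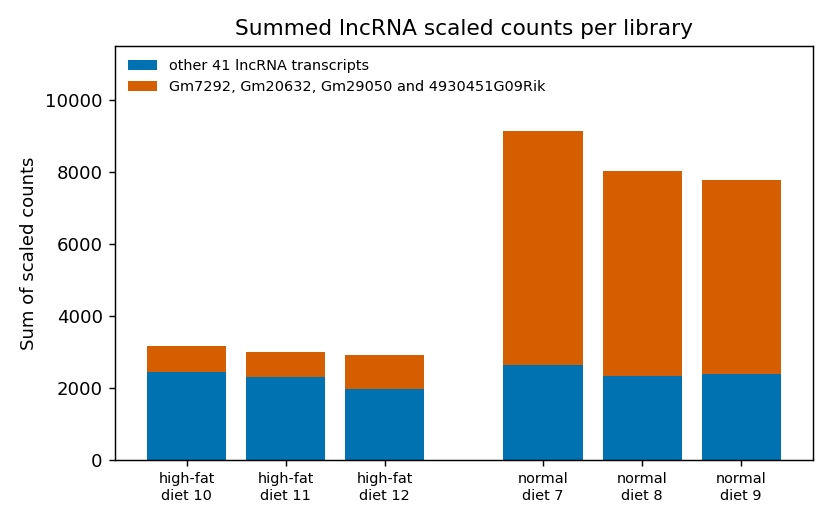
Sum of scaled counts over the 45 lncRNA transcripts in each library, high-fat diet on the left and normal diet on the right, with the 4 abundant transcripts in orange and the other 41 in blue. The blue parts lie between 1972 and 2632 in all 6 libraries, while the orange parts are tall in the normal-diet libraries alone. The other listed Gm7292 transcript, of biotype lincRNA, is in neither part.

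Of the 6 transcripts of intergenic lncRNA genes, 2 rose and 4 fell with edgeR. Among these 6 the largest difference belonged to Gm7292 (ENSMUST00000194706, a single exon at chr6:117716342-117718868). It had 0 counts in high-fat libraries 10, 11 and 12, against 1091, 1255 and 1267 counts in normal-diet libraries 7, 8 and 9. This is at least 394-fold lower on the high-fat diet, taking a floor of 3 counts per library (edgeR adjusted p = 0.00183). Its 3 normal-diet libraries were nearly equal, with a coefficient of variation of 1.54%. The other listed transcript of the gene, ENSMUST00000195277, is also a single exon, starts 131 bases downstream and ends at the same base in the table. Only these 131 bases therefore set the 2 listed models apart. In GENCODE M21 ENSMUST00000195277 is shorter, at 995 bases. It had 1681, 1820 and 1871 counts on the high-fat diet, against 653, 759 and 512 on the normal diet, and rose (log2 fold change 1.49 ± 0.28, SE; edgeR adjusted p = 0.00505). Added together, the 2 models had 1772 ± 113 scaled counts on the high-fat diet and 1804 ± 146 on the normal diet, and the sum did not pass (log2 fold change -0.03 ± 0.20, edgeR adjusted p = 0.909). Without high-fat library 12 that log2 fold change was 0.026, and without normal-diet library 8 it was 0.021. With DESeq2 size factors the sum did pass in edgeR, at a log2 fold change of -0.57 (adjusted p = 0.0308), beside a median shift of -0.52 that these factors put on all listed transcripts. In GENCODE M21, 77.5% of the 50-base words of the lncRNA model also occur in 2900097C17Rik, so the assignment of reads to this gene is uncertain.

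Meg3 and Xist were the only genes of 57 known mouse lncRNA genes with a listed transcript, and the listed transcript of each fell. The lists hold nuclear, X inactivation and imprinted lncRNAs, hosts of small RNAs (0 of 21 with a listed transcript) and lncRNAs studied in testis (0 of 6). Meg3 (ENSMUST00000129245, 3 exons at chr12:109541001-109545319) had 41, 50 and 44 counts in the high-fat libraries, against 84, 95 and 119 in the normal-diet libraries. Its log2 fold change was -1.11 ± 0.31 (SE; edgeR adjusted p = 0.0128), and the call was lost without high-fat library 12 (edgeR adjusted p = 0.0507). Xist (ENSMUST00000127786, 7 exons and 17946 bases at chrX:103460366-103483254) had 36, 30 and 37 counts on the high-fat diet, against 70, 75 and 74 on the normal diet. Its log2 fold change was -1.06 ± 0.30 (SE; edgeR adjusted p = 0.0132), and the edgeR call was lost without high-fat library 11 (adjusted p = 0.0652) or 12 (adjusted p = 0.0511). Neither transcript overlapped between diets, which holds for 91.3% of all listed transcripts. Per kilobase, Xist was at 1.90 scaled counts on the high-fat diet and 3.98 on the normal diet, and Meg3 at 29.8 and 64.4. In GENCODE M21, 63.1% of the 50-base words of this Meg3 transcript occur in other Meg3 transcripts and 45.5% in other genes. It has no splice junction of its own, so its fall may not be that of the whole gene.

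Among the other intergenic genes, 4930455J16Rik (6 exons at chr13:58752715-58762360) rose. It had 231, 213 and 203 counts in the high-fat libraries, against 81, 91 and 46 in the normal-diet libraries (log2 fold change 1.58 ± 0.42, SE; edgeR adjusted p = 0.0109). Gm29154 had 17, 10 and 14 counts on the high-fat diet, against 0, 0 and 1 on the normal diet, and passed (edgeR adjusted p = 0.00366). All 50-base words of Gm29154 occur in other transcripts of the same gene, so its counts rest on how reads were divided among them. 4930412B13Rik, which shares no 50-base word with another transcript, had 2, 0 and 0 counts in the high-fat libraries, against 15, 17 and 12 in the normal-diet libraries (edgeR adjusted p = 0.00652). Both transcripts are near the floor in one diet, so no fold is given for them.

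For 9 of the 45 transcripts the RefSeq table on GRCm38.p6 holds a promoter, from 250 bases before to 50 bases after a start that lies within 50 bases of the start in the deposited table. They were searched on both strands for AACTG and AACNGTT, which MYB factors bind, for TGACG and its full palindrome TGACGTCA, which CREB and CREM factors bind, and for GTTGCC, which RFX factors bind. These families are known for roles in germ cell transcription. TGACG was in 4 of the 9 (44.4%), against 20.8% of 32851 mouse promoters, and the full TGACGTCA in 1 (11.1%), against 1.79%. AACTG was in 5 (55.6%) against 44.8%, GTTGCC in 1 (11.1%) against 12.5%, and AACNGTT in 0 against 4.45%. The 9 promoters held a median of 13 CG pairs each, against 7 in all promoters, at 53.7% against 52.7% G and C, and TGACG contains a CG, so the background is not like for like. A TGACGTCA always holds TGACG on both strands, so these counts overlap. The promoters of Meg3, which holds the full sequence, and of Xist are shown, with TGACG on either strand in capitals. Both transcripts fell. TGACG was also in the promoters of Gm28453, which fell, and of Selenom, which was higher and below the edgeR filter. The promoters of Mrpl58, Reck, Selenom and Zfp961 are those of isoforms of coding genes. A link between the motif and the direction was not tested. With 9 promoters these shares are a description, and a match is not a site that a factor was seen to occupy.
Meg3 promoter, chr12:109540746-109541045, plus strand: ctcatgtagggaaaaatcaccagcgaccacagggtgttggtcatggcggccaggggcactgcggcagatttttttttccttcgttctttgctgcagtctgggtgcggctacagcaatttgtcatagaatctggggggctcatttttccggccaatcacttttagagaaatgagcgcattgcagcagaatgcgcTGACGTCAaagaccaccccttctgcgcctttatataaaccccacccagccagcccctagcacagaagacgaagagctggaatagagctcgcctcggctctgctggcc
Xist promoter, chrX:103483184-103483483, minus strand: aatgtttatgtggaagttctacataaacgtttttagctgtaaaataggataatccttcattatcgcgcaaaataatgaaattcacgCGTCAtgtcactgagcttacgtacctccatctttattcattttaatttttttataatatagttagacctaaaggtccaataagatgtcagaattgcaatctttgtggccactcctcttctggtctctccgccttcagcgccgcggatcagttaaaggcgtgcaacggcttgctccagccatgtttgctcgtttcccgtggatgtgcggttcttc

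Antisense lncRNA genes, which lie on the strand opposite to a coding gene, had 7 of 10 transcripts tested with edgeR, of which 2 rose and 5 fell. The only listed transcript overlapping one of them on the opposite strand was an assembled one at Gm20632, given below. The libraries mark the strand, but whether counting used it is not given in the sources used here, so reads of a gene and its antisense partner may not be told apart. 1700031F10Rik (2 exons at chr6:88222604-88223639) overlaps Dnajb8, a gene for a chaperone of the DNAJ family, and shares 84.8% of its 50-base words with it in reverse. An equal share, 84.8%, also occurs in other transcripts of 1700031F10Rik itself, and 15.2% occur in no other transcript. Its counts may therefore depend on how reads were divided among them. The listed 1700031F10Rik transcript had 605, 765 and 468 counts on the high-fat diet, against 74, 59 and 167 on the normal diet. It rose (log2 fold change 2.67 ± 0.54, SE; edgeR adjusted p = 0.00616), and per kilobase it was the highest lncRNA transcript on the high-fat diet, at 1009 scaled counts against 158 on the normal diet. 1700094J05Rik, antisense to the pericentrin gene Pcnt, had 68, 74 and 73 counts on the high-fat diet, against 27, 33 and 38 on the normal diet. Its log2 fold change was 1.16 ± 0.29 (SE; edgeR adjusted p = 0.00974). That call was lost with TMM (log2 fold change 0.66, edgeR adjusted p = 0.0707) and with DESeq2 size factors (0.62, edgeR adjusted p = 0.0962).

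Some antisense transcripts that fell had nearly equal counts across the libraries of a diet. Gm4673 (chr7:30957409-30961619) overlaps Lsr, a lipoprotein receptor gene, and starts 606 bases from that of the transcription factor gene Usf2. It had 0 counts in each high-fat library, against 138, 177 and 176 in the normal-diet libraries, at least 53.4-fold lower (edgeR adjusted p = 0.00195). Gm46603 (a single exon at chr17:29319981-29322484) lies opposite Pi16, a peptidase inhibitor gene. It had 10, 10 and 16 counts on the high-fat diet, against 123, 143 and 122 on the normal diet (log2 fold change -3.42 ± 0.34, SE; edgeR adjusted p = 0.00183). Both had coefficients of variation under 10% on the normal diet, 7.02% and 9.83%. Gm42722, opposite Pifo and Chil5, had 13, 13 and 14 counts against 32, 36 and 39 (log2 fold change -1.39, edgeR adjusted p = 0.00552). Gm9856, whose start is 246 bases from that of Tmem42, had 78, 92 and 115 counts on the high-fat diet, against 144, 169 and 180 on the normal diet. Its log2 fold change was -0.78 ± 0.29 (SE; edgeR adjusted p = 0.0371), and the edgeR call was lost without any 1 of the 6 libraries (adjusted p from 0.0702 to 0.112).

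Other antisense transcripts rested on some libraries only. Gm20632 (a single exon at chr3:96239393-96241819, in the histone gene cluster opposite Hist2h2aa2) had 0 counts in each high-fat library. On the normal diet it had 2024 counts in library 7, 0 in library 8 and 2707 in library 9. The diets therefore overlap at 0, it was below the edgeR filter, and 39.8% of its 50-base words also occur in Gm20633. An assembled transcript on the other strand of this locus had 749, 979 and 907 counts on the high-fat diet, against 537, 539 and 558 on the normal diet (log2 fold change 0.70, edgeR adjusted p = 0.0430). Gm29050 (chr17:5388763-5419652, opposite Tmem242 and Ldhal6b) had 7, 29 and 41 counts in the high-fat libraries, against 1797, 2853 and 37 in the normal-diet libraries. Its log2 fold change was -5.99 ± 1.64 (SE; edgeR adjusted p = 0.0125), it was -5.32 without normal-diet library 8, and the call was lost with limma-voom (adjusted p = 0.181). Normal-diet library 9 lay within the high-fat range. The Gm29050 model is 2758 bases long in the table and 502 in GENCODE M21. Gm26810, opposite the calpain subunit gene Capns1, was below the edgeR filter with 0 counts in each high-fat library, against 63, 4 and 71 on the normal diet. Gm35853, opposite Krt80, was also below it with 9, 9 and 6 counts on the high-fat diet, against 0 in each normal-diet library.

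Pseudogenes and the other noncoding classes had 2 transcripts each with counts high enough for edgeR, and all of these fell. 4930451G09Rik (9 exons at chr16:4964289-4980328, starting 84 bases from Anks3 on the other strand) had the highest mean of all lncRNA transcripts on the high-fat diet. It had 641, 647 and 1025 counts there, against 1195, 1876 and 1834 on the normal diet (log2 fold change -1.07 ± 0.28, SE; edgeR adjusted p = 0.0106). This edgeR call was lost without normal-diet library 8 (adjusted p = 0.0572) or 9 (adjusted p = 0.0508). Gm28453 had 43, 43 and 35 counts, against 90, 93 and 91 (log2 fold change -1.15, edgeR adjusted p = 0.0138), and its edgeR call was lost without high-fat library 12 (adjusted p = 0.0513). Krt74, a keratin gene classed as a pseudogene in this annotation, was below the filter with 0 counts in each high-fat library, against 7, 11 and 9 in the normal-diet libraries.

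Gm5893 (12 exons at chr7:24818795-24841059) had 97, 77 and 69 counts in the high-fat libraries, against 260, 350 and 400 in the normal-diet libraries. It fell (log2 fold change -2.0 ± 0.38, SE; edgeR adjusted p = 0.00508). An assembled transcript of the same locus fell with it, and their sum was 157 ± 46.3 scaled counts on the high-fat diet, against 593 ± 149 on the normal diet (log2 fold change -1.92 ± 0.40, edgeR adjusted p = 0.00687). The lncRNA model held between 50.5% and 63.6% of the listed counts of the locus in every library. In GENCODE M21, 2.79% of its 50-base words occur in no other transcript. The assembled model covers nearly the same span, chr7:24818773-24841059. How shared reads were divided between both models is therefore uncertain. 4931415C17Rik, a single exon whose start is 62 bases from that of Tubgcp3, a gene for a gamma-tubulin complex subunit, had 6, 4 and 20 counts, against 70, 47 and 80 (log2 fold change -2.74, edgeR adjusted p = 0.0074). Without high-fat library 12 its log2 fold change was -3.57. Tmem147os had 10, 8 and 7 counts on the high-fat diet, against 0 in each normal-diet library, and was below the filter. Other gene entries hold 88.2% of its 50-base words, led by Sbsn and another entry also named Tmem147os.

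The noncoding isoforms of coding genes had 13 of 23 transcripts tested, 8 that rose and 5 that fell. Among those that rose, Reck (ENSMUST00000128463, 22 exons at chr4:43875530-43944806) is an isoform of a gene for a membrane-anchored inhibitor of metalloproteinases. It had 162, 161 and 230 counts on the high-fat diet, against 11, 27 and 43 on the normal diet (log2 fold change 2.80 ± 0.52, SE; edgeR adjusted p = 0.00505). Dennd1b, from a gene for an exchange factor of Rab GTPases, had 164, 220 and 205 counts, against 45, 52 and 60 (log2 fold change 1.93 ± 0.31, SE; edgeR adjusted p = 0.00372). The diets did not overlap for either, which holds for 91.3% of all listed transcripts. Within the normal diet the Reck isoform varied between libraries, the lowest at 11 and the highest at 43 counts. In GENCODE M21, 4.91% of the 50-base words of the Reck isoform and 0.870% of those of the Dennd1b isoform occur in no other transcript. Reads of the shared sequence could come from other isoforms. The counted Dennd1b model is 10203 bases long, against 5337 in GENCODE M21, so its share does not describe the whole counted model.

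Isoforms of genes of the sperm tail moved both ways. Iqcg (5 exons at chr16:33040769-33056510) and Efcab2 are genes for parts of the nexin-dynein regulatory complex of the axoneme, and Saxo1 encodes a protein that stabilises axonemal microtubules. Iqcg had 89, 88 and 138 counts on the high-fat diet, against 36, 39 and 35 on the normal diet (log2 fold change 1.51 ± 0.31, SE; edgeR adjusted p = 0.00634). Saxo1 had 33, 39 and 34 counts, against 13, 12 and 7 (1.72 ± 0.38, SE; edgeR adjusted p = 0.00697). Efcab2 fell, with 60, 50 and 93 counts on the high-fat diet, against 150, 280 and 353 on the normal diet (-1.92 ± 0.43, SE; edgeR adjusted p = 0.00707). The diets did not overlap for any of the 3, which holds for 91.3% of all listed transcripts. The Efcab2 model is 6772 bases long in the table and 667 in GENCODE M21, so most of its length is not annotated there.

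Several isoforms had 0 counts in every normal-diet library. The isoform of Tgfa, a gene for a ligand of the epidermal growth factor receptor, had 16, 103 and 147 counts in the high-fat libraries and 0 in each normal-diet library, at least 28.4-fold higher (edgeR adjusted p = 0.00724). That of Zfp961, a zinc finger gene, had 133, 14 and 99 counts, against 0 in each normal-diet library, at least 28.1-fold higher (edgeR adjusted p = 0.00862), and at least 17.2-fold without high-fat library 10. That of Pnisr, a gene for a splicing-related protein, had 28, 12 and 30 counts, against 0, at least 7.85-fold higher (edgeR adjusted p = 0.00449). In the library that is low for Tgfa, high-fat 10, Zfp961 was at its highest, so no single high-fat library was low for all. The isoform of Cux1, a homeodomain factor, had 147, 129 and 32 counts, against 12, 8 and 4 (log2 fold change 3.72 ± 0.84, SE; edgeR adjusted p = 0.0074).

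A further 4 isoforms with 0 counts in each normal-diet library were below the edgeR filter. These were isoforms of Selenom, an endoplasmic reticulum selenoprotein, with 4, 18 and 11 counts on the high-fat diet, and of Mrps6, a mitochondrial ribosomal protein, with 14, 7 and 9. The isoform of Tmub2 had 15, 11 and 5 counts and that of 9430038I01Rik 29, 5 and 32. All 4 reached at most 32 counts in any library, and against the floor of 3 counts per library they were between 3.44-fold and 7.38-fold higher at least. Without high-fat library 11 the bound for Selenom was 2.39. The Selenom isoform has neither an exonic base nor a splice junction of its own in GENCODE M21.

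Of the isoforms that fell, Fos (ENSMUST00000136122, 3 exons at chr12:85474691-85477273) belongs to a gene for an immediate early transcription factor. It had 0 counts in each high-fat library, against 76, 42 and 26 in the normal-diet libraries, at least 16.2-fold lower (edgeR adjusted p = 0.00498), and at least 10.7-fold without normal-diet library 7. Epb41 (ENSMUST00000151746, 5 exons at chr4:131923413-131937464) is an isoform of a gene for a protein of the membrane skeleton. It had 10, 13 and 16 counts on the high-fat diet, against 443, 290 and 21 on the normal diet. Its log2 fold change was -4.32 ± 1.14 (SE; edgeR adjusted p = 0.0111), it was -3.53 without normal-diet library 7, and the call was lost with limma-voom (adjusted p = 0.0719). Normal-diet library 9 was close to the high-fat libraries. Pced1a, whose isoform starts 108 bases from Vps16 on the other strand, had 36, 31 and 37 counts, against 64, 118 and 107 (log2 fold change -1.43, edgeR adjusted p = 0.00864). Fkbp15, from a gene for a protein of the FK506-binding family, had 0, 2 and 0 counts, against 88, 18 and 21, and passed (edgeR adjusted p = 0.00725).

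The other 6 lower isoforms were below the edgeR filter, and most were high in some normal-diet libraries and near the floor in others. Cntnap5b had 1 count in each high-fat library, against 120, 1 and 69 counts in the normal-diet libraries. That of Mllt10, a cofactor of the histone methyltransferase DOT1L, had 2, 1 and 1 counts, against 56, 69 and 3. That of Map4, a microtubule-associated protein, had 4, 3 and 5 counts, against 55, 8 and 136. Normal-diet library 8 was the low one for Cntnap5b and Map4, and library 9 for Mllt10. The isoform of Tle6, from a gene of the Groucho family, had 0 counts in each high-fat library, against 2, 60 and 73 on the normal diet. Those of Mrpl58, a mitochondrial peptidyl-tRNA hydrolase, and Nanos3 had 0, 0 and 0 and 1, 0 and 0 counts on the high-fat diet, against 14, 16 and 5 and 12, 18 and 7 on the normal diet.

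At 5 loci the table lists another transcript beside the lncRNA, which allows the listed counts of a locus to be added. Of all loci summed in this way 94.7% passed edgeR. The lncRNA isoform of Epb41 was lower while 3 coding transcripts of the same gene were higher, all with 0 counts on the normal diet. Of these, ENSMUST00000146021 had 145, 592 and 317 counts on the high-fat diet. The lncRNA isoform held 4.55%, 2.05% and 4.16% of the listed counts of the locus in the high-fat libraries, and 100% in each normal-diet library. The sum was 405 ± 205 scaled counts on the high-fat diet and 256 ± 227 on the normal diet, and did not pass (log2 fold change 0.67 ± 1.04, edgeR adjusted p = 0.560). It was 1.46 without normal-diet library 7, 0.12 without normal-diet library 9 and 0.18 without high-fat library 11, and passed in none of these fits (edgeR adjusted p from 0.296 to 0.887). ENSMUST00000155990 shares both ends with the lncRNA isoform.

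At Fos the coding transcript ENSMUST00000021674 was the one with counts on the high-fat diet, 11, 25 and 21, and it had 0 on the normal diet. The sum of both was 18.5 ± 6.46 scaled counts on the high-fat diet, against 48.3 ± 29.3 on the normal diet (log2 fold change -1.37 ± 0.56, edgeR adjusted p = 0.0545). This sum passed with TMM (log2 fold change -1.79, edgeR adjusted p = 0.0246), with DESeq2 size factors (-1.90, edgeR adjusted p = 0.0201) and with library totals (-1.59, edgeR adjusted p = 0.0339). It also passed without normal-diet library 9 (-1.70, edgeR adjusted p = 0.0359), and without normal-diet library 7 it was -0.78. At Iqcg both listed transcripts rose, but not in proportion. The lncRNA isoform held 4.37%, 5.47% and 16.7% of the listed counts of the locus in the high-fat libraries. In the normal-diet libraries it held 26.1%, 37.1% and 61.4%. An assembled transcript there had 1949, 1522 and 687 counts on the high-fat diet, against 102, 66 and 22 on the normal diet, and the sum was 1527 ± 763 scaled counts, against 99.7 ± 47.1 (log2 fold change 3.94 ± 0.64, edgeR adjusted p = 0.00416). A sum covers listed transcripts only and is not the whole output of a gene.

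**Figure D3:**
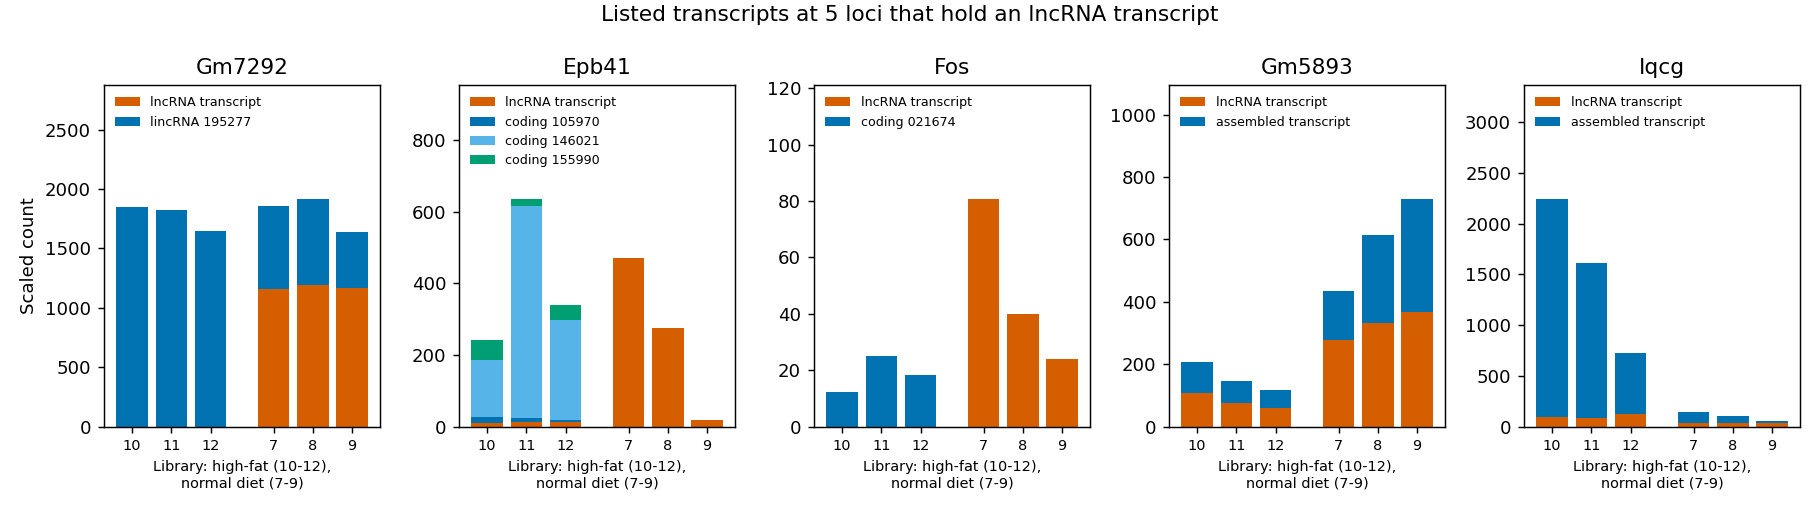
Scaled counts of the listed transcripts at 5 loci that hold an lncRNA transcript (orange), stacked by transcript in high-fat libraries 10 to 12 on the left of each panel and normal-diet libraries 7 to 9 on the right, with the last digits of the transcript identifier in the legend. At Gm7292 the stacks are of like height in all 6 libraries although the lncRNA part is at 0 on the high-fat diet, while at Gm5893 both parts are shorter on the high-fat diet and at Iqcg both are taller.

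Spread between libraries of a diet is given here by class, without a test of the difference between classes. In the diet where a transcript was higher, the median coefficient of variation over 3 libraries was 60.8% for the isoforms and 17.5% for the genes of their own, against 50.6% for all listed transcripts. The highest library was over 5 times the lowest, or the lowest was at 0, for 10 of 23 isoforms and for 3 of 22 genes of their own, which are Gm20632, Gm29050 and Gm26810. Over all lncRNA transcripts this was 28.9%, against 35.0% of all listed. No one library accounted for these 13 transcripts. Normal-diet library 8 was the lowest in 5, normal-diet library 9 in 3, high-fat library 11 in 2, and normal-diet library 7 and high-fat libraries 10 and 12 in 1 each.

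The classes also hold different amounts of sequence of their own, as the annotation gives it. In GENCODE M21 a median of 9.54% of the 50-base words of the isoforms occur in no other transcript, against 58.1% for the genes of their own. Of the 45 transcripts 33 had under 50% of such words. Xist had 93.7%, and Gm42722 and 4930412B13Rik had 100%. All shares of words in no other transcript count matches in the same orientation only. Matches in reverse covered 31.9% of the words of Gm42722, 11.3% of those of Xist and 0% of those of 4930412B13Rik. Exonic bases that no other transcript uses made up a median of 8.92% of the isoforms and 62.6% of the genes of their own. A total of 9 transcripts had no such base, 34 had a splice junction of their own, and only Gm29154 and Selenom had neither. Counts of transcripts with little sequence of their own depend on how the authors' quantification divided shared reads. The models in the table also differ from the annotation, since 18 of 45 have the GENCODE coordinates and 10, of which 8 are isoforms, are over 2 times their GENCODE length. The part that shared sequence and low counts play in the spread between libraries was not tested.

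**Figure D4:**
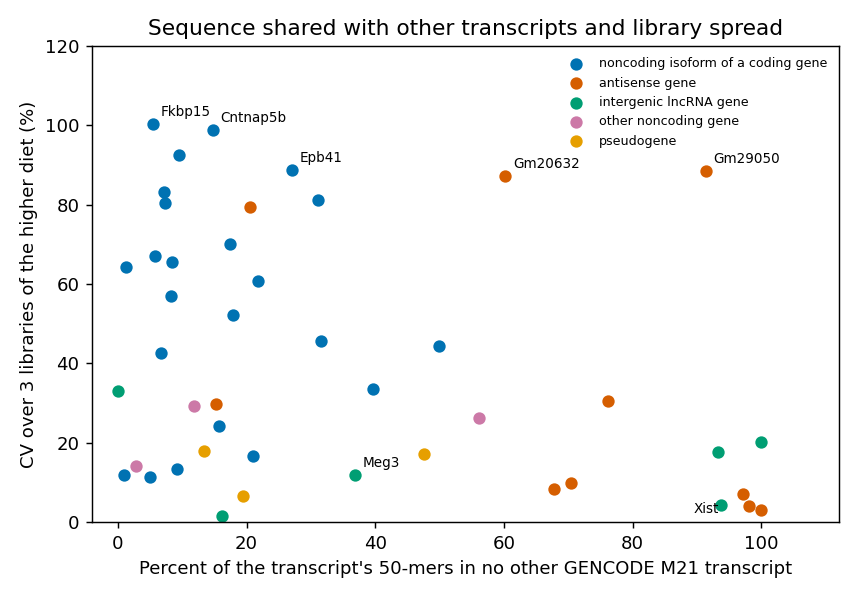
Each point is one of the 45 lncRNA transcripts, with the percent of its 50-base words found in no other GENCODE M21 transcript on the horizontal axis and the coefficient of variation (SD over mean, in percent) of its scaled counts over the 3 libraries of the diet where it was higher on the vertical axis, coloured by gene class. Matches in reverse orientation are not counted. All isoforms of coding genes (blue) lie left of 50%, over a wide range of variation. Gm20632, at 60.2%, and Gm29050, at 91.4%, have variation near 90%. The share of Gm29050 is that of its GENCODE M21 model of 502 bases, while the counted model is 2758 bases long.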

How the data were processed

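The authors' deposited table holds estimated counts per transcript and library, per the file headers, as whole numbers. It also holds rounded scaled counts (used as a score, only to recover size factors), a mean signal, and the authors' deposited results per transcript: a fold change (ratio), its log2 value, a p-value and an adjusted p. The submitters' processing notes name Trimmomatic, HISAT2, StringTie, DESeq and the build GRCm38 but give no versions. All sample columns were used.

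Size factors were recovered as the ratio of count to scaled count at 1000 counts or more; they were 0.908, 0.999 and 1.14 in the high-fat libraries and 0.940, 1.05 and 1.09 in the normal-diet libraries. Listed counts summed to 427777, 438171 and 490603 per library on the high-fat diet and to 362790, 390717 and 402866 on the normal diet, which is part of the depth only. The quasi-likelihood test of edgeR 4.0.16 (R 4.3.3; filterByExpr with a minimum count of 10, these size factors) was run on all 831 listed transcripts, and p-values were adjusted by Benjamini-Hochberg over those tested, at a threshold of 0.05, after the step had been tested on simulated data. Adjusted p-values do not account for transcripts that are not listed. The number of transcripts the authors tested, 95751, follows from their adjusted and unadjusted p-values. A fold against a diet at 0 is a lower bound from a floor of 3 counts per library and covers counting error only. Alternatives used TMM, DESeq2 size factors, totals, other filters, DESeq2 1.42.0, limma-voom (limma 3.58.1), adjustment over all transcripts, and leaving out each library. Classes, 50-base words and exons come from GENCODE M21. Promoters and microRNAs come from RefSeq tables on GRCm38.p6.

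Named with values were the 8 transcripts with the largest log2 fold change in each direction, the 8 with the highest mean, and those with a descriptive symbol or a second listed transcript; others were added to cover all members. The members and lists were chosen with earlier results of these data known.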

Additional observations from a re-analysis of the deposited data

How the results depend on the processing

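With edgeR 30 lncRNA transcripts passed, 12 higher and 18 lower. Other settings passed 28 (TMM, 10 higher and 18 lower), 27 (DESeq2 size factors), 29 (library totals), 28 (limma-voom), 45 (no filter) and 45 (DESeq2). Of all listed transcripts tested, TMM passed 646 of 676, DESeq2 size factors 628 of 670 and library totals 666 of 678. Limma-voom passed 633 of 680, no filter 822 of 831 and DESeq2 831 of 831. The numbers passed therefore say nothing particular about the lncRNA transcripts. Leaving out 1 library gave 33 to 36, 13 to 15 higher and 18 to 23 lower, because more transcripts met the filter. Among all listed transcripts these fits passed between 694 of 769 and 714 of 771. With a mean count of at least 50, fewer were tested and 7 higher passed, beside 582 of 589 listed transcripts in either direction. At an edgeR adjusted p of 0.01, 11 of the lower transcripts passed, and with canonical transcripts only there were 10, 1 higher and 9 lower. Adjusted over all 95751 transcripts, edgeR called 0, with 0 higher and 0 lower, although 30 had an unadjusted p under 0.05. That adjustment left 1 of 680 listed transcripts called. In the authors' deposited table, 15 passed at 0.01, 8 of them higher and 7 lower. With at most 3 counts per library in place of 0, the high-fat diet had 13 transcripts. The mean level per kilobase was 42.1 on the high-fat diet and 71.1 on the normal diet, in place of medians that average 8.72 and 17.2. Left-out libraries moved these medians between 8.21 and 9.39 and between 12.5 and 19.7, and the lncRNA sums between 2947 and 3069 and between 7907 and 8581. Without the 4 most abundant transcripts, a choice made after seeing the data, the sums were 2240 on the high-fat diet and 2454 on the normal diet. Of the 30 transcripts 8 lost their call under a setting other than the adjustment over all, and 0 changed direction. Some fell below the filter and had no value in a setting. Values were there for 29 with TMM and with library totals, 28 with DESeq2 size factors and 20 at a mean count of at least 50. The sum at Gm7292 changed sign without high-fat library 12 (0.026) and without normal-diet library 8 (0.021), ranged down to -0.090 with other libraries left out, and passed with DESeq2 size factors (-0.57); the cause was not tested. No paired analysis was possible because the 2 diets share no library numbers. Of the 23 isoforms of coding genes, 10 were below the edgeR filter. All 23 had under 50% of 50-base words in no other GENCODE M21 transcript. What low counts and shared sequence do to these results was not tested.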
